A study of Oryza sativa with 6 samples.

Results

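Transcript levels were compared between rice seedlings carrying RNA interference against OsUBA and wild-type seedlings, across all genes that the array could measure. RNA interference (RNAi) uses double-stranded RNA of the same sequence to deplete a chosen transcript. The comparison uses 4 of the 6 arrays of the series, 2 biological replicates of each of these groups. Probe sets were taken if they were no control probe sets and reached a log2 value of 5 in at least 2 of the 4 arrays, which gave 36942 of 57194 probe sets other than controls (57381 in all). A probe set is a group of short probes on the array that together read 1 transcript. The kept ones include 16124 genes with a locus identifier, of which 2238 carry a gene name. The second highest of the 4 arrays was 5.0 just inside this limit and 4.9999 just outside it.

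Both groups are Oryza sativa. The wild type is cultivar Nipponbare, and the other group is labelled as OsUBA RNAi rice with no cultivar given. Plants of both groups were untreated whole seedlings taken at the 4-leaf stage after growth at 28 °C. A further pair of arrays, from plants overexpressing OsUBA, entered the fit for its estimate of the spread. The labels name no transformed plants without an OsUBA construct and give no promoter, number of transformed lines or pooling of plants. Effects of transformation and of OsUBA RNAi can therefore not be told apart.

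UBA is a usual short form for the ubiquitin-associated domain, a small protein fold that binds ubiquitin, although the labels do not spell out the gene's name. Proteins with this domain often hand ubiquitin-tagged proteins to the proteasome, which degrades them. In plants this route sets the level of many hormone repressors, such as the Aux/IAA and JAZ proteins. Seedling growth also rests on the cell wall: cellulose synthases at the plasma membrane spin cellulose along tracks of cortical microtubules, and laccases help to cross-link lignin in walls that thicken later.

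The array medians lay between log2 5.68 and 5.92, with 34231 to 36277 probe sets per array at log2 5 or more. Replicates correlated across probe sets at r = 0.922 (wild type) and 0.919 (RNAi), and wild-type with RNAi arrays at 0.891 to 0.916. Over all pairs of arrays from different groups, those with overexpression among them, r was 0.864 to 0.925. Leaf transcripts were bright in all arrays of these seedlings: the chlorophyll-binding protein gene CAB2R (LOC4324599) stood at log2 15.84 and 15.69 in wild type and 15.75 and 15.79 in RNAi, and Rubisco activase (rca, LOC4351224) at 15.95 and 15.78 against 15.81 and 15.97. The locus of OsUBA itself is named neither in the labels nor in the gene tables used, so its own transcript was not analysed here. Of 64 reporter control probe sets, 2 were at log2 12.91 to 13.64 in the RNAi arrays and at 2.97 to 5.15 in wild type. The part of the reporter constructs in the gene results was not tested. The values are those of 2 arrays a group, which limits the precision of each, and in these bulk samples fewer cells of a type cannot be told apart from less RNA per cell.

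The comparison asks which transcripts differ when OsUBA is targeted. Most of the difference lay on the lower side, and the laccase gene LAC4 and the cellulose synthase gene CESA4 stood among the largest named falls. Of the 36942 probe sets, 293 were called (0.793%), 71 higher (0.192%) and 222 lower (0.601%) in RNAi. A probe set was called at a Benjamini-Hochberg adjusted p under 0.05 in limma, with a prior spread that follows brightness. Counted over genes with 1 probe set each, 38 were higher (0.236%) and 150 lower (0.93%), or 1.17% of 16124. The 2 groups of arrays did not overlap in any of the 293, which was so for 15316 of all kept probe sets (41.5%). At an unadjusted p under 0.05 there were 4253 probe sets (1645 higher, 2608 lower), where chance alone gives 1847.

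The called falls were large and mostly of well-expressed transcripts, which follows in part from the test and the filter. Their median log2 change was -2.67, with sizes from 0.81 to 9.38, and 175 of the 222 were past log2 2 in size. Their median level was 10.01 in wild type, 10.90 in overexpression and 7.09 in RNAi. The called rises had a median log2 change of 2.27, with sizes from 0.86 to 9.69, and 43 of 71 were past log2 2. Their median level was 8.40 in wild type, 9.33 in overexpression and 10.98 in RNAi. Of the rises, 14 had a wild-type mean under log2 5, and of the falls, 46 had an RNAi mean under it. A probe set under log2 5 in both arrays of 1 group was kept only through the other group. Small changes seldom pass with 2 arrays a group. When the filter was set on the mean of the 4 arrays, 59 probe sets were called higher and 169 lower. With changes counted from this floor of log2 5 the medians in the main fit were -2.48 for the falls and 2.18 for the rises. For single genes a fold against a mean under log2 5 is counted from the floor and given as a lower bound, while medians of lists and the plots use the plain differences.

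**Figure D1:**
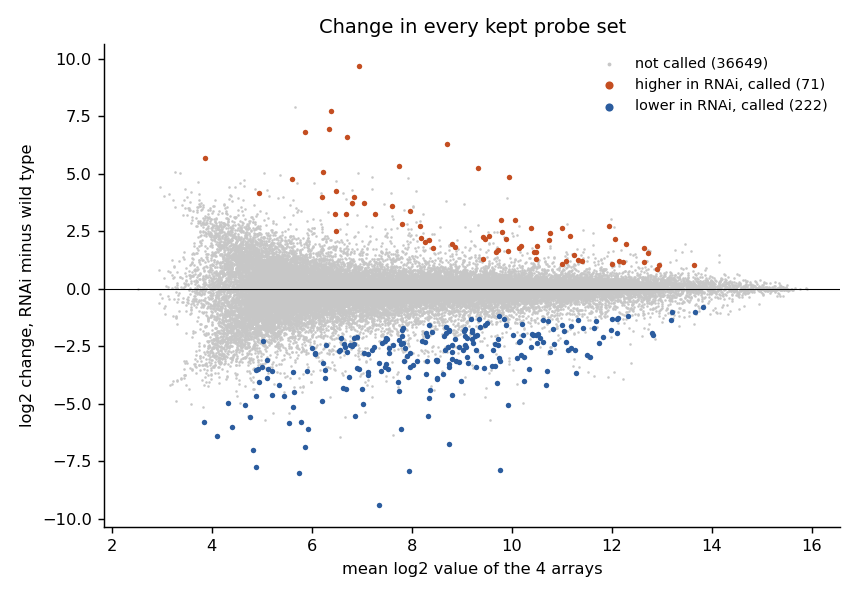
Each point is 1 of the 36942 kept probe sets, with the mean log2 value of the 2 wild-type and 2 RNAi arrays on the horizontal axis and the log2 change (RNAi minus wild type) on the vertical axis. The 222 called falls outnumber the 71 called rises, and calls occur at all levels of brightness, while the scatter of the other probe sets is widest at low values.

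The number of calls rests on how the spread is estimated and on single arrays. The median SD between the wild-type arrays fell from 0.62 under a mean of log2 6 to 0.15 at 12 and over, and between the RNAi arrays from 0.58 to 0.13. A limma fit whose prior ignores brightness called 0 higher and 1 lower probe set (0.00271%), with 3586 at an unadjusted p under 0.05. With wild-type replicate 1 left out 13 probe sets were called in place of 293, and with replicate 2 left out 8. The number was 100 or 112 when the first or second overexpression array was dropped, 688 with RNAi replicate 1 dropped and 190 with RNAi replicate 2 dropped. With only the 4 arrays compared it was 112, of which 105 were among the 293.

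Of 9 measured CESA genes, which encode cellulose synthases, 5 were called lower, 0 were called higher and 4 did not pass. Over all genes 0.93% were called lower. The median log2 change of the 9 was -2.38, beside 0.02 over all genes. CESA4 (LOC4324625), which in rice builds the cellulose of secondary walls, stood at log2 11.77 and 11.72 in wild type and at 8.38 and 6.93 in RNAi. The fall was 17.0-fold (log2 change -4.09 ± 0.46 SE, adjusted p = 0.0157). A further probe set of CESA4 also passed, at -3.11 (adjusted p = 0.0448). CESA1 (LOC4337958), of the primary wall, stood at 12.50 and 12.45 in wild type and at 10.01 and 9.79 in RNAi. Its arrays agreed closely within each group, and the fall of 5.96-fold had the smallest p of the family (log2 change -2.58 ± 0.17, adjusted p = 0.00321). Another probe set of CESA1 read -1.97 and did not pass (adjusted p = 0.0719).

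CESA6 (LOC4342850) stood at 10.77 and 10.93 in wild type against 8.70 and 8.24 in RNAi, a fall of 5.21-fold (adjusted p = 0.0267). CESA8 (LOC4342699), like CESA1 a primary-wall subunit in rice, stood at 11.95 and 12.11 against 10.05 and 9.25, a fall of 5.20-fold (adjusted p = 0.0190). The fifth called member, CESA5 (LOC4334710), chosen after its values were seen, fell 3.81-fold, from 9.58 and 9.72 to 7.83 and 7.61 (adjusted p = 0.0268). In all 5, RNAi replicate 2 was the lower of the RNAi arrays, and overexpression replicate 2 the lower of the overexpression arrays.

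The other secondary-wall subunits had differences of similar size that did not pass, and their RNAi arrays lay far apart. CESA7 (LOC4348853) stood at 11.58 and 12.01 in wild type and at 8.90 and 5.33 in RNAi (log2 change -4.68, adjusted p = 0.106). CESA9 (LOC4347093) stood at 9.23 and 9.82 against 6.79 and 4.63 (log2 change -3.82, adjusted p = 0.0638). CESA3 (LOC4343049), of the primary wall, stood at 13.33 and 13.35 against 12.05 and 10.99 (log2 change -1.82, adjusted p = 0.0586). Only CESA2 (LOC4334515), a dim member with overlapping groups, read higher among the 9 (log2 change 0.24, adjusted p = 0.912). BC1 (LOC4333114), the COBRA-like protein that rice needs for ordered cellulose in secondary walls, stood at 9.34 and 10.08 against 7.70 and 6.19 and did not pass (log2 change -2.76, adjusted p = 0.0955). Without RNAi replicate 1 BC1 did pass (adjusted p = 0.0171).

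None of the 5 CESA calls held without wild-type replicate 1 (adjusted p 0.0510 to 0.202) or 2 (0.0522 to 0.129), that of CESA8 was lost without overexpression replicate 1 or 2 (0.0577 and 0.0542), and those of CESA6 and CESA5 without RNAi replicate 2 (0.0786 and 0.0839). The fold of CESA4 was 28.2 without RNAi replicate 1 and 10.3 without replicate 2.

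CSLF6 (LOC4344719), the synthase of the mixed-linkage glucan of grass walls, stood at 11.19 and 11.26 in wild type and at 9.63 and 8.77 in RNAi. The fall was 4.07-fold (log2 change -2.03 ± 0.30, adjusted p = 0.0379). CSLF6 was the 1 called member of 18 measured cellulose synthase-like genes, beside 0.93% of all genes called lower. The median log2 change of the 18 was -0.44. A dim second probe set of CSLF6, at 5.92 and 6.04 against 5.26 and 2.15, did not pass (at least 1.97-fold lower, adjusted p = 0.516).

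The next 5 genes lie outside the rule for named genes and in none of the lists, and were chosen after they were seen to be called. OsGT47D (LOC4327240), named for a glycosyltransferase family that works on wall polysaccharides, stood at 9.06 and 8.57 against 5.94 and 6.58, a fall of 5.87-fold (adjusted p = 0.0335). OsTBL6 (LOC4334574), of a family of polysaccharide acetyltransferases, stood at 8.67 and 9.27 against 6.68 and 6.48, a fall of 5.25-fold (adjusted p = 0.0378). A second probe set of OsTBL6 was at least 2.97-fold lower and did not pass (adjusted p = 0.210), and the one that passed is of a type that can match related transcripts.

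The others are the gene named cellulase and 2 genes with glucanase names, whose family was not counted as a list. Cellulases cut glucan chains. The gene named cellulase (LOC4347685) stood at 11.45 and 11.81 in wild type and at 9.44 and 8.79 in RNAi, a fall of 5.73-fold (log2 change -2.52 ± 0.26, adjusted p = 0.0120). GLU2 (LOC4334029) stood at 12.85 and 12.89 against 11.09 and 10.46, a fall of 4.28-fold (adjusted p = 0.0130). GLU10 (LOC4330667) fell 3.49-fold, at 8.84 and 8.58 against 6.96 and 6.86 (adjusted p = 0.0491). All 3 were bright or moderately bright in wild type and their RNAi arrays stayed above the floor.

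Among 20 measured expansins, proteins that loosen the wall without cutting it, 1 was called lower and 0 higher. Over all genes 0.93% were called lower. The median log2 change of the expansins was -0.43. The called one was EXPB3 (LOC4349349), at 13.27 and 12.60 in wild type and 10.76 and 9.39 in RNAi (log2 change -2.86 ± 0.45, adjusted p = 0.0450). EXPB2 (LOC4349348) did not pass and shows a split between replicates, at 10.57 and 11.08 in wild type but 10.90 and 4.91 in RNAi (adjusted p = 0.568). EXPB7 (LOC4331300) was split the same way, at 9.42 and 10.38 against 9.96 and 5.73 (adjusted p = 0.602). BGLU3 (LOC4327593), of the beta-glucosidases that release sugars from glucosides, stood at 7.25 and 6.67 in wild type and under the floor in both RNAi arrays (2.57 and 3.27). It was at least 3.89-fold lower (adjusted p = 0.0430), and its further probe sets passed at log2 changes of -2.26 and -3.12 (adjusted p = 0.0225 and 0.0104). These further probe sets were brighter and stayed above the floor in RNAi, at 7.10 and 7.05 and at 6.85 and 7.02.

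Of these 8 wall genes outside the CESA family, 0 kept the call without wild-type replicate 1 (adjusted p 0.119 to 0.325) or 2 (0.0935 to 0.155), 2 without overexpression replicate 1 (0.0445 to 0.119) or 2 (0.0444 to 0.111), 7 without RNAi replicate 1 (0.00260 to 0.0677) and 3 without RNAi replicate 2 (0.0210 to 0.144). Without RNAi replicates 1 and 2 EXPB3 was 11.6-fold and 4.51-fold lower.

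**Figure D2:**
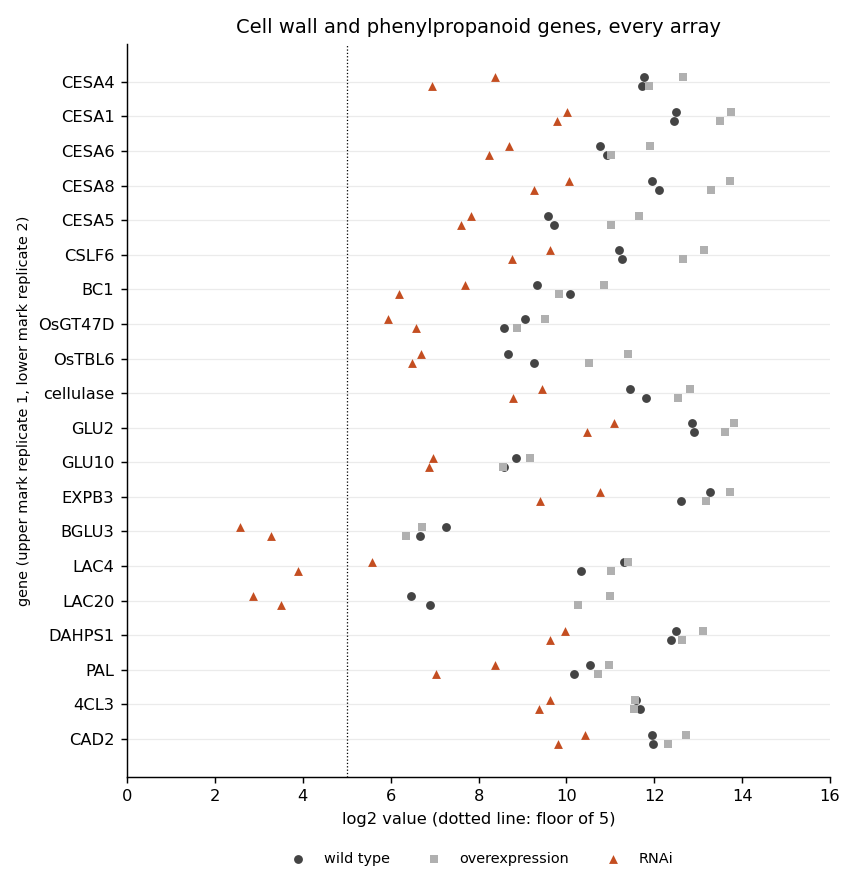
Log2 values of 20 wall and phenylpropanoid genes in each of the 6 arrays, with 1 line per gene, the upper mark of each pair replicate 1 and the lower mark replicate 2. In every gene shown both RNAi arrays (triangles) lie left of both wild-type arrays (circles). The called genes were chosen among probe sets whose groups do not overlap, so for them this follows from the choice. Of all kept probe sets 41.5% do not overlap. BC1 is the 1 gene shown that was not called. The probe sets shown for BGLU3 and LAC20 lie under the floor of log2 5 in both RNAi arrays, while the further BGLU3 probe sets stayed above it.

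DAHPS1 (LOC4333014), in none of the lists, opens the shikimate pathway that supplies phenylalanine. It stood at 12.50 and 12.39 in wild type and at 9.97 and 9.62 in RNAi. All 4 values were tight within their group, and the fall was 6.29-fold (log2 change -2.65 ± 0.21, adjusted p = 0.00504). Of 19 measured genes of the monolignol list, 2 were called lower and 0 higher, beside 0.93% of all genes called lower. The other 17 did not pass, 6 of the 19 had a positive value, and the median log2 change was -0.68. 4CL3 (LOC4328485), which activates cinnamic acids with coenzyme A on the way to monolignols, stood at 11.59 and 11.67 against 9.62 and 9.37, a fall of 4.40-fold (log2 change -2.14 ± 0.17, adjusted p = 0.00477). CAD2 (LOC4328552), a cinnamyl alcohol dehydrogenase that makes the monolignols themselves, stood at 11.95 and 11.97 against 10.42 and 9.80, a fall of 3.61-fold (adjusted p = 0.0264).

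PAL (LOC4330034), phenylalanine ammonia-lyase, the entry enzyme, was read by 5 probe sets. The 1 that passed stood at 10.53 and 10.18 in wild type and 8.38 and 7.03 in RNAi (log2 change -2.65 ± 0.41, adjusted p = 0.0450). The other 4 read -2.19 to -3.81 and did not pass (adjusted p 0.0610 to 0.263), and the brightest of them, at 14.10 and 13.80 against 13.01 and 10.52, stands for PAL in the list. CAD3 (LOC4348690), the brightest cinnamyl alcohol dehydrogenase at 14.45 and 14.43 against 14.54 and 14.82, did not pass (log2 change 0.24, adjusted p = 0.608).

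Laccases, copper oxidases that join monolignols into lignin, had 2 of 6 measured members called lower and 0 higher. Over all genes 0.93% were called lower. The laccase median log2 change was -2.03, or -1.004 with changes counted from the floor. LAC4 (LOC4327500) had the largest called fall of any named gene, from 11.31 and 10.34 in wild type to 5.58 and 3.89 in RNAi. Its RNAi mean lay under the floor, so the fall is given as at least 56.7-fold (adjusted p = 0.00928). LAC20 (LOC4351006) stood at 6.46 and 6.89 against 2.86 and 3.50, at least 3.19-fold lower (adjusted p = 0.0235), and at 10.99 and 10.26 in overexpression. LAC7 (LOC4324802) read -4.94 with replicates far apart in both groups, at 14.16 and 11.21 against 9.35 and 6.15, and did not pass (adjusted p = 0.147).

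Of DAHPS1, 4CL3, CAD2, PAL, LAC4 and LAC20, 0 kept the call without wild-type replicate 1 (adjusted p 0.0664 to 0.324) or 2 (0.0666 to 0.146), 3 without overexpression replicate 1 (0.0168 to 0.117) or 2 (0.0164 to 0.114), all 6 without RNAi replicate 1 and 5 without RNAi replicate 2 (0.0111 to 0.0574). Without RNAi replicates 1 and 2 the PAL fold was 10.03 and 3.92.

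Among genes of the cytoskeleton, 2 tubulins and 4 kinesins were called lower. TUBB4 (LOC4327550), a beta-tubulin, the building block of microtubules, stood at 10.26 and 10.30 in wild type and at 7.81 and 7.88 in RNAi. Replicates differed by little in either group, and the fall was 5.42-fold (log2 change -2.44 ± 0.32, adjusted p = 0.0264). TUBB5 (LOC4328420) stood at 11.95 and 12.00 against 10.40 and 10.34, a fall of 3.03-fold (adjusted p = 0.0358). These were the 2 called of 11 measured tubulins, with 0 called higher, beside 0.93% of all genes called lower. The tubulin median log2 change was -0.59. A second TUBB4 probe set read -1.53 (adjusted p = 0.257).

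Other tubulins went different ways without passing. The alpha-tubulin TubA (LOC4350197) stood at 12.61 and 13.01 against 11.60 and 11.73 (log2 change -1.14, adjusted p = 0.0571). TUBB6 (LOC4338790) stood higher in RNAi, at 12.73 and 12.59 against 13.55 and 14.28 (log2 change 1.25, adjusted p = 0.171). The 11 tubulins thus held 9 negative and 2 positive values.

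Kinesins, motor proteins that move along or organise microtubules, had 4 of 27 measured members called lower and 0 higher. Over all genes 0.93% were called lower. The kinesin median log2 change was -0.51. KIN14H (LOC4337093) stood at 10.54 and 10.41 in wild type and at 7.75 and 5.79 in RNAi, a fall of 13.1-fold (log2 change -3.71 ± 0.55, adjusted p = 0.0378). KIN5A (LOC9268593), of the kinesin class that slides antiparallel microtubules, stood at 8.22 and 7.57 against 5.63 and 4.73, a fall of 6.55-fold (adjusted p = 0.0470). KIN7K (LOC4349100) fell 5.05-fold and KIN13B (LOC4326684), of the class that shortens microtubules, 4.47-fold (adjusted p = 0.0488 and 0.0475). The KIN13B probe set is of a type that can match related transcripts. OsRac6 (LOC4328116), a small GTPase of the Rac family that steers the cytoskeleton and the wall in plants, stood at 11.30 and 10.76 against 9.39 and 8.65 (4.03-fold lower, adjusted p = 0.0491) and was chosen after its values were seen.

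Of these 7 cytoskeleton genes, 0 kept the call without wild-type replicate 1 (adjusted p 0.202 to 0.330) or 2 (0.0902 to 0.152), 2 without overexpression replicate 1 (0.0209 to 0.121) or 2 (0.0199 to 0.118), 7 without RNAi replicate 1 and 1 without RNAi replicate 2 (0.0125 to 0.143). Without RNAi replicates 1 and 2 KIN14H was 25.8-fold and 6.63-fold lower.

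Aux/IAA genes, whose proteins hold back auxin response until ubiquitin marks them for degradation, had 2 of 24 measured members called lower and 0 higher. Over all genes 0.93% were called lower. The Aux/IAA median log2 change was -0.94. IAA30 (LOC4352721) stood at 9.33 and 9.42 in wild type and at 7.07 and 5.82 in RNAi, a fall of 7.61-fold (log2 change -2.93 ± 0.44, adjusted p = 0.0400). IAA21 (LOC4340939) stood at 11.75 and 11.82 against 10.29 and 10.16, a fall of 2.95-fold (adjusted p = 0.0374). IAA17 (LOC4338160), the brightest member, stood at 14.70 and 14.31 against 13.67 and 13.17 and did not pass (log2 change -1.09, adjusted p = 0.0889). In the list, 19 members had a negative value and 5 a positive one.

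The auxin response factors that Aux/IAA proteins bind had 0 of 17 members called, beside 1.17% over all genes, and a median of -0.06. ARF23 (LOC4350610) stood at 12.93 and 13.19 against 13.00 and 13.00, with overlapping groups (adjusted p = 0.940). CYP734A6 (LOC4325222), of a P450 family that inactivates brassinosteroids in rice, fell 6.84-fold, from 8.98 and 8.89 to 6.67 and 5.65 (log2 change -2.77 ± 0.37, adjusted p = 0.0267). CYP714C2 (LOC4351346), another P450, chosen after its values were seen, stood at 9.21 and 9.03 against 7.62 and 7.50 (2.95-fold lower, adjusted p = 0.0343), and its second probe set read -1.74 (adjusted p = 0.113). Of IAA30, IAA21 and the 2 P450 genes, 0 kept the call without wild-type replicate 1 (adjusted p 0.214 to 0.266) or 2 (0.117 to 0.163), 1 without overexpression replicate 1 (0.0445 to 0.0920) or 2 (0.0419 to 0.0914), 4 without RNAi replicate 1 and 1 without RNAi replicate 2 (0.0399 to 0.116). The IAA30 fold was 11.7 without RNAi replicate 1 and 4.93 without replicate 2.

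On the higher side, 2 of the 7 called genes with a name were JAZ genes. JAZ proteins repress jasmonate response until a jasmonate signal has them tagged with ubiquitin and degraded. JAZ9 (LOC4331832) stood at 6.51 and 5.10 in wild type and at 9.33 and 9.43 in RNAi. The RNAi arrays were close together and the wild-type arrays scattered, and the rise was 11.95-fold (log2 change 3.58 ± 0.48, adjusted p = 0.0285). JAZ12 (LOC4348533) stood at 9.79 and 9.56 against 12.22 and 12.43, a rise of 6.28-fold (log2 change 2.65 ± 0.33, adjusted p = 0.0234).

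Of 12 measured JAZ genes, 2 were called higher and 0 lower, beside 0.236% of all genes called higher. Their median log2 change was 1.29. JAZ13 (LOC4348531) stood at 6.18 and 6.27 in wild type and 10.29 and 9.35 in RNAi and missed the threshold (log2 change 3.60, adjusted p = 0.0530), as did JAZ11 (LOC4331833), at 8.55 and 8.36 against 10.32 and 11.57 (log2 change 2.49, adjusted p = 0.0653). The brightest members overlapped between groups: JAZ1 (LOC4337240) stood at 14.35 and 14.22 against 14.05 and 14.73, and JAZ7 (LOC4343899) at 14.29 and 14.05 against 13.67 and 14.67. The list of jasmonate synthesis genes had 0 of 14 members called, beside 1.17% over all genes, and a median of 0.27. The calls of JAZ9 and JAZ12 were lost without wild-type replicate 1 (adjusted p = 0.0528 and 0.185), wild-type replicate 2 (0.0726 and 0.120) or RNAi replicate 2 (0.103 and 0.0742), and that of JAZ9 without overexpression replicate 1 or 2 (0.0825 and 0.0793). The fold of JAZ9 was 19.6 without wild-type replicate 1 and 7.31 without replicate 2.

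Protein phosphatases 2C, a large family with members that damp abscisic acid signalling, had 2 of 53 called higher and 0 lower. Over all genes 0.236% were called higher. The median log2 change of the family was 0.12. PP2C09 (LOC4327465) stood at 9.65 and 9.64 in wild type and at 11.19 and 11.31 in RNAi, a rise of 3.05-fold (log2 change 1.61 ± 0.18, adjusted p = 0.0149). PP2C68 (LOC4346736) stood at 7.42 and 7.66 against 9.22 and 9.38, a rise of 3.39-fold (adjusted p = 0.0355). The abscisic acid list, with the receptors and kinases that act beside the phosphatases, had 0 of 13 called, beside 1.17% over all genes. Its median was -0.04, with changes from -0.93 to 1.12. Its member PYL11 (LOC4338104) stood at 11.56 and 11.81 against 11.98 and 12.14 and did not pass (adjusted p = 0.461). ABF2 (LOC4330838), of the bZIP list, stood at 10.94 and 10.77 against 11.74 and 12.22. It came nearer without passing (log2 change 1.12, adjusted p = 0.0681), and its change was 1.37 without RNAi replicate 1.

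The remaining named rises were single members of large families, beside 0.236% of all genes called higher. YSL9 (LOC4336545), of the yellow stripe-like carriers of metal chelates, stood at 8.90 and 9.30 against 10.76 and 10.77 (log2 change 1.67 ± 0.21, adjusted p = 0.0234) and was the 1 called of 36 iron and zinc genes. CIPK29 (LOC4344285), a kinase that works with calcium sensors, stood at 8.72 and 8.84 against 9.94 and 10.22 (log2 change 1.30 ± 0.20, adjusted p = 0.0467) and was the 1 called of 48 calcium-regulated kinases. Hox22 (LOC4336542), a homeodomain leucine zipper factor, stood at 11.36 and 11.71 against 12.69 and 12.84 (log2 change 1.23 ± 0.20, adjusted p = 0.0484) and was the 1 called of 39 homeobox genes.

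Of these 5 rises, 0 kept the call without wild-type replicate 1 (adjusted p 0.131 to 0.286), wild-type replicate 2 (0.0709 to 0.129) or RNAi replicate 2 (0.0625 to 0.185), 1 without overexpression replicate 1 (0.0445 to 0.113) or 2 (0.0450 to 0.109), and 2 without RNAi replicate 1 (0.0214 to 0.0621). PP2C68, CIPK29 and Hox22 were called in 0 of the 6.

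**Figure D3:**
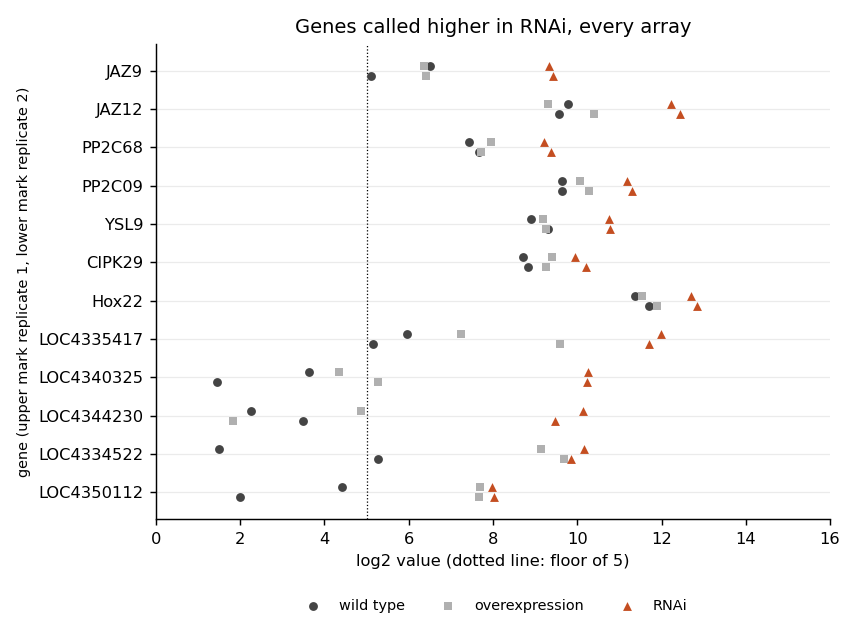
Log2 values of the 7 named genes called higher in RNAi and of the 5 largest called rises among genes without a name, in each of the 6 arrays (upper mark replicate 1, lower mark replicate 2). In every gene shown both RNAi arrays (triangles) lie right of both wild-type arrays (circles). This follows from the choice of called probe sets whose groups do not overlap, as is so for 41.5% of all kept probe sets. In LOC4334522 and LOC4350112 the overexpression arrays (squares) lie close to the RNAi arrays.

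Outside these groups, PORA (LOC4337415), the light-dependent protochlorophyllide reductase that greens etiolated leaves, had the second largest called fall of a named gene. It stood at 12.24 and 9.97 in wild type, 13.62 and 12.94 in overexpression and 7.24 and 5.76 in RNAi. The wild-type arrays themselves lay far apart, and the log2 change was -4.60 ± 0.75 (adjusted p = 0.0491). It was the 1 called of 10 chlorophyll synthesis genes, whose median was -0.03, beside 0.93% of all genes called lower. CHLH (LOC4332690), a subunit of the magnesium chelatase of the same pathway, stood at 15.01 and 14.58 against 14.51 and 14.70, with overlapping groups (adjusted p = 0.769).

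The gene ta4 (LOC4329846) stood at 11.39 and 11.31 in wild type, 13.20 and 13.67 in overexpression and 8.23 and 7.74 in RNAi, a fall of 10.3-fold from wild type (adjusted p = 0.00386) that its second probe set shared (log2 change -3.02, adjusted p = 0.00396). ALN (LOC4337428), an allantoinase of purine nitrogen recycling that was chosen after its values were seen, stood at 12.69 and 12.31 against 10.80 and 10.79, a fall of 3.27-fold (adjusted p = 0.0149). AO-4 (LOC4342932) stood at 9.09 and 8.28 against 5.80 and 4.58 (11.3-fold lower, adjusted p = 0.0400). Of its 3 other probe sets, 1 passed at a log2 change of -2.29 (adjusted p = 0.0335), 1 read -0.74 and did not pass (0.733), and 1 with an RNAi mean under the floor was at least 1.88-fold lower and did not pass (0.410). Of PORA, ta4, ALN and AO-4, 0 kept the call without wild-type replicate 1 (adjusted p 0.0664 to 0.298) or 2 (0.0577 to 0.118), 2 without overexpression replicate 1 (0.0168 to 0.124), overexpression replicate 2 (0.0164 to 0.122) or RNAi replicate 2 (0.0113 to 0.133), and 4 without RNAi replicate 1. Without wild-type replicates 1 and 2 the PORA fold was 11.1 and 53.5, without RNAi replicates 1 and 2 it was 40.7 and 14.5, and that of AO-4 was 7.40 without RNAi replicate 2.

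Most of the 52 gene lists had no called member. At the 1.17% called over all genes, lists of these sizes would often hold none. The ubiquitin and proteasome list, the machinery nearest to a ubiquitin-binding protein, had 0 of 32 called, with changes between -0.26 and 0.32 and a median of -0.03. UBQ1 (LOC4332169), a ubiquitin gene, stood at 13.32 and 13.79 against 13.48 and 13.77. RUB1 (LOC4347085), of the ubiquitin-like modifiers, stood at 13.25 and 13.44 against 13.69 and 13.65 and did not pass (adjusted p = 0.457).

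The lists of DNA replication genes, cyclins and H2B histones were also without calls. DNA replication genes had 0 of 21 called and a median of 0.19, and cyclins 0 of 20 and -0.15, beside 1.17% called over all genes. The plain changes of the cyclins ran from -3.73 to 1.21, with 0 past log2 2 when counted from the floor. H2B histones had 0 of 5 called, although all 5 values were negative, at -0.10 to -0.74. The nearest was H2B.11 (LOC4327384), at 12.30 and 12.00 against 11.44 and 11.38 (adjusted p = 0.136).

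Photosynthesis lists had medians close to 0. Light harvesting and photosystem genes had 0 of 5 called and a median of -0.05. Rubisco and its activase had 0 of 3 called and a median of 0.04. For these and the next lists the share called over all genes was 1.17%. Heat shock factors had 0 of 20 called, with 17 positive values and a median of 0.33. WRKY factors, of pathogen response, had 0 of 6 called and a median of 0.51, and WRKY71 (LOC4328512) stood at 9.61 and 10.22 against 11.26 and 11.06 (adjusted p = 0.276). Sugar transporters had 0 of 13 called, although SWEET4 (LOC4329093) stood at 13.79 and 13.82 against 12.71 and 10.92 (log2 change -1.99, adjusted p = 0.160). Without RNAi replicate 1 SWEET4 did pass (adjusted p = 0.00114).

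**Figure D4:**
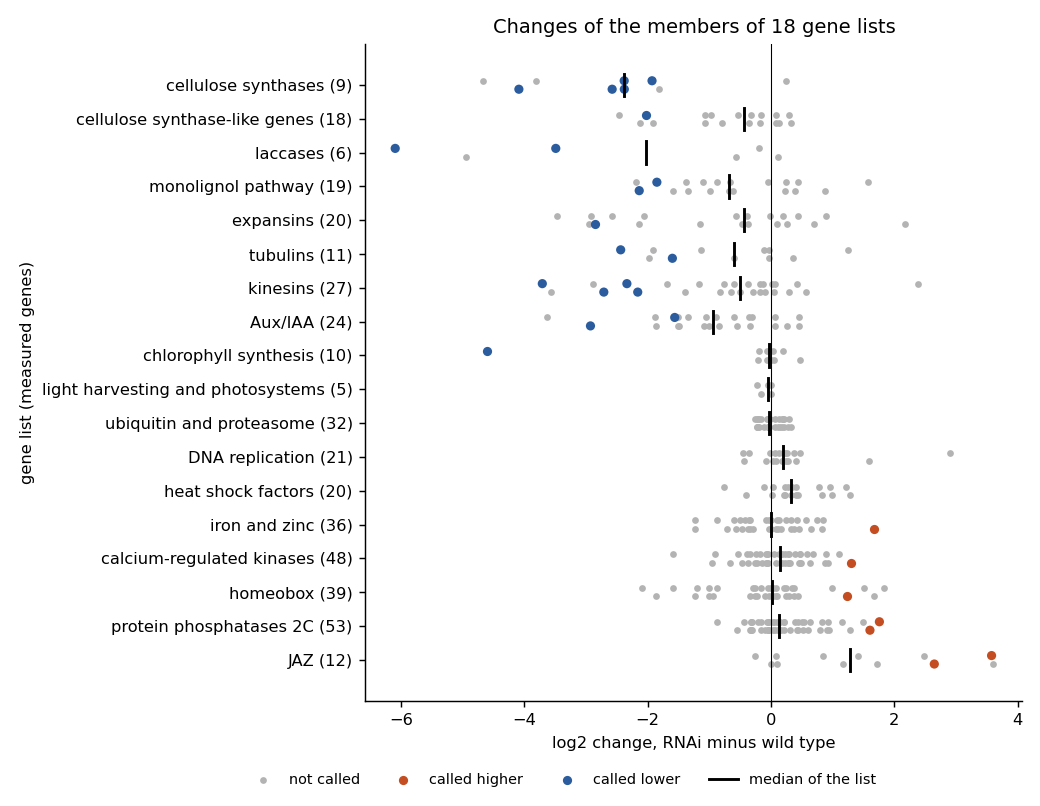
Log2 change (RNAi minus wild type) of each measured member of 18 of the 52 gene lists, with called members in colour, others in grey and a black bar at the median of each list; the number of measured genes is in brackets. The cellulose synthase and laccase medians lie at -2.38 and -2.03, the JAZ median at 1.29, and the ubiquitin and proteasome members all lie between -0.26 and 0.32.

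Among the genes without a name, LOC4324833 had the smallest p of all, with log2 13.80 and 13.58 in wild type, 14.38 and 14.49 in overexpression and 5.79 and 5.83 in RNAi. The RNAi arrays agreed closely, and the fall was 235.4-fold (log2 change -7.88 ± 0.16, adjusted p = 6.34e-06). LOC4344231 followed, at 13.06 and 13.19 against 9.58 and 9.32, a fall of 12.8-fold (log2 change -3.68 ± 0.16, adjusted p = 0.000934). LOC4326148 stood at 12.67 and 11.57 against 5.68 and 5.05, a fall of 108.2-fold (log2 change -6.76 ± 0.39, adjusted p = 0.00269). These were called in all 6 fits that leave out 1 array, which held for 3 of the 52 calls named here.

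Of the other large falls, LOC4344033 stood at 6.83 and 10.67 in wild type and 0.95 and 1.09 in RNAi (at least 13.4-fold lower, adjusted p = 0.0291), LOC4346676 at 9.74 and 8.83 against 3.62 and 1.24 (at least 19.5-fold lower, adjusted p = 0.0157) and LOC4330044 at 7.61 and 7.23 against 1.68 and 1.13 (at least 5.36-fold lower, adjusted p = 0.0153). All 3 were under the floor in both RNAi arrays. The other probe sets of LOC4344033 were at least 7.58-fold and 4.14-fold lower and did not pass (adjusted p = 0.131 and 0.264). Another of LOC4346676 passed, at least 24.5-fold lower (adjusted p = 0.0329).

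Among the rises, LOC4335417 stood at 5.97 and 5.15 in wild type, 7.25 and 9.60 in overexpression and 11.99 and 11.69 in RNAi, a rise of 78.0-fold (log2 change 6.29 ± 0.69, adjusted p = 0.0149). LOC4340325 stood under the floor in both wild-type arrays, at 3.63 and 1.44, and at 10.26 and 10.24 in RNAi (at least 38.0-fold higher, adjusted p = 0.0120). A second probe set of LOC4340325 read -0.14 (adjusted p = 0.938), so the gene's probe sets disagree. LOC4334522 was at least 32.2-fold higher and LOC4350112 at least 7.97-fold higher (adjusted p = 0.0451 for both), from 1.51 and 5.28 to 10.17 and 9.85 and from 4.41 and 2.01 to 7.97 and 8.02.

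Of the 11 genes given by locus alone, LOC4344230 below among them, 7 kept the call without wild-type replicate 1 and 4 without replicate 2, 6 and 8 when the first or second overexpression array was dropped, and 8 and 6 when the first or second RNAi array was dropped. LOC4324833 had the lowest adjusted p in each (3.81e-05 to 0.000589). LOC4344033 was at least 50.8-fold lower without wild-type replicate 1 and at least 3.55-fold lower without replicate 2. No other of the 11 folds, counted from the floor, moved by over 1.5 times without a wild-type or RNAi array. The 11 do not include LOC9269151, LOC4338023 and LOC4330036 or the probe sets with no listed gene. For these, named below, results with an array left out are not given.

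Some called genes lay next to each other on the rice chromosomes. In the order of genes of a RefSeq annotation, 198 called genes could be placed, and 6 pairs of next neighbours were both called. How many such pairs random placement would give was not worked out. In 5 pairs both went the same way, and in 1 they went opposite ways. As 222 of the 293 called probe sets were falls, most pairs would go the same way in any case. The opposite pair was LOC4344230 and LOC4344231. Over 1 of its probe sets LOC4344230 stood at 5.40 and 4.77 in wild type and 10.53 and 10.29 in RNAi (log2 change 5.32 ± 0.43, adjusted p = 0.00518), beside the fall of LOC4344231 given above. Its second probe set, of a type that can match related transcripts, stood at 2.25 and 3.49 against 10.14 and 9.48 (at least 28.0-fold higher, adjusted p = 0.0430).

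LOC9269151 and LOC4338023 fell side by side. LOC9269151 stood at 10.00 and 11.40 in wild type and 5.83 and 6.11 in RNAi (adjusted p = 0.00719), and LOC4338023 at 8.97 and 8.74 against 4.31 and 4.73 (at least 14.4-fold lower, adjusted p = 0.00386). In overexpression they stood at 13.42 and 13.20 and at 13.95 and 13.19. PAL had a called neighbour too, LOC4330036, with 3 called probe sets at log2 changes of -3.48, -1.95 and -1.90. Genes in tandem can be close copies, and probe sets of PAL and LOC4330036 may share targets, which was not tested.

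Of the 293 called probe sets, 27 of the higher and 52 of the lower ones have no single gene in the array annotation used. The 2 largest changes were among them, and the probe sets below were chosen after their values were seen. The largest rise, in a probe set with no listed gene, stood at 3.37 and 0.83 in wild type, 11.62 and 11.71 in overexpression and 11.75 and 11.83 in RNAi, at least 110.5-fold higher in RNAi (adjusted p = 0.00396). The largest fall, also with no listed gene, stood at 12.02 and 12.04 in wild type, 2.30 and 3.72 in overexpression and 3.19 and 2.10 in RNAi, at least 130.3-fold lower (adjusted p = 0.00386). In both, the transgenic groups stood together and away from wild type, whose arrays both comparisons share. Another with no listed gene stood at 6.75 and 6.67 in wild type, 5.96 and 6.82 in overexpression and 12.09 and 11.80 in RNAi (37.6-fold higher, adjusted p = 0.00321).

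The 2 RNAi arrays did not carry the falls equally. In 168 of the 222 called falls RNAi replicate 2 was the lower array, against 49.2% of all kept probe sets. The median change from the wild-type mean was -2.45 in replicate 1 and -2.86 in replicate 2. The gap between the RNAi arrays had a median of 0.49 in these probe sets, and the gap between the wild-type arrays 0.33. Among the 71 rises replicate 2 was lower in 32, and the medians were 2.23 and 2.28. Replicate 2 was also the lower wild-type array in 134 of the 222 falls. In overexpression the median level of the falls was 11.11 in replicate 1 and 10.66 in replicate 2. A lower replicate 2 in these falls was thus not particular to the RNAi arrays. What sets the replicates apart was not tested.

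**Figure D5:**
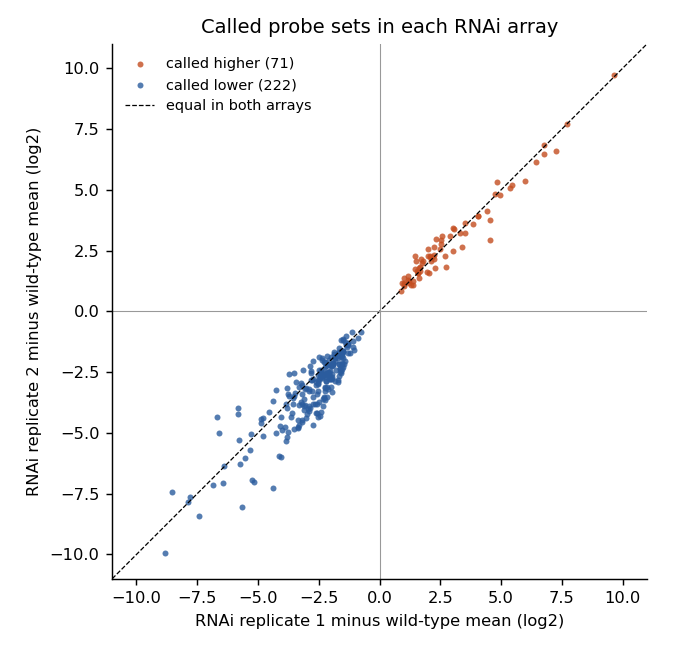
Change of each called probe set from the wild-type mean (log2) in RNAi replicate 1 (horizontal axis) and RNAi replicate 2 (vertical axis), with a dashed line where both are equal. The 71 rises lie along the line, and 168 of the 222 falls lie below it.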

How the data were processed

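Total RNA of rice seedlings was extracted with Trizol, and biotin-labelled cRNA from 6 µg was hybridised to 1-colour Affymetrix arrays, per the labels' protocols. The authors deposited log2 values of 57381 probe sets, for which the submitters' processing notes name RMA with no version. Between 329 and 614 of the deposited values on an array are exactly 0, and no detection calls come with them, so how probes were summarised and which signals exceed background are not given in the sources used here.

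From these values, 187 control probe sets and 20252 under the floor (log2 5 in at least 2 of the 4 arrays compared) were left out. limma 3.58.1 in R 4.3.3 fitted a mean for each of the 3 groups to the 6 arrays, leaving 3 residual degrees of freedom. It used eBayes with an intensity trend, two-sided, with Benjamini-Hochberg adjustment over 36942 probe sets at 0.05. A run on simulated arrays gave them a spread that followed brightness alone, as this prior does. It therefore cannot show how well the prior suits these data. Tables were made with Python 3.11.15 and pandas 2.3.3. Group values are the 2 replicate arrays, which the series gives as biological replicates. The intensity trend was made the main setting with the counts of both kinds of fit known, and the 52 gene lists and the named genes were likewise chosen with earlier results of these data known. Each gene of a list is read by its brightest probe set over the 4 arrays, and a list is described by counts and medians with no test.

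Named genes are the 15 largest called rises and falls with a gene name and the 5 largest each without one, the 3 smallest p, as many as 4 called genes from a list, and for lists with no call up to 2 of the brightest members. For each gene the called probe set with the largest change was taken. List members, neighbours and probe sets named beyond this rule were chosen after their values were seen. Gene names came from the array annotation and the RefSeq gene table of rice, which held all 17905 genes of the annotation and, in assembly ASM3414082v1, also gave the order of neighbouring genes. Of the kept probe sets, 19695 have 1 listed gene, 85 several and 17162 none. Alternatives were other priors, filters and normalizations, array weights, a fit without the overexpression arrays, a replicate block, averaged probe sets, and each array left out in turn. No genome and no sequence was used.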

Additional observations from a re-analysis of the deposited data

Results flagged for a closer look

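A signal appeared in 2 of the 64 reporter control probe sets, which lie outside the gene comparison, and was above the wild-type level. The first averaged log2 13.43 ± 0.30 (SD, n = 2) in RNAi, at 13.22 and 13.64, against 5.15 and 3.50 in wild type and 3.59 and 5.09 in overexpression, at least 345.2-fold above the floor of log2 5. The second averaged 13.16 ± 0.35 in RNAi, at 13.40 and 12.91, against 3.12 and 2.97 in wild type, at least 285.6-fold above the floor, and stood at 13.96 and 14.41 in overexpression. The highest value of any other reporter probe set in the 6 arrays was 7.03. The second probe set was bright in both transgenic groups, and the first was bright in the RNAi arrays and near the floor or under it in the other 4.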

How the results depend on the processing

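None of the 52 named calls changed sign under any of the other settings that gave it a value, which was all 52 except under the filter on the mean of the 4 arrays, where it was 48, but most calls depend on the prior and on the wild-type arrays. Without the intensity trend 0 probe sets were higher and 1 lower, 1 in all, and 0 list members were called in place of 27. With only the 4 arrays compared the counts were 37, 75 and 112, with 13 list members. Leaving out 1 array gave 3 to 130 higher, 5 to 558 lower and 8 to 688 in all, and 0 to 55 list members, the lowest totals without a wild-type array and the highest without RNAi replicate 1. These fits take the spread of a group with 1 array from the others. Under the robust prior, other filters, other normalizations, array weights and averaged probe sets the totals were 223 to 360, within 1.5 times of 293. Same-numbered wild-type and RNAi arrays did not deviate together across all kept probe sets (r = -0.044). This value cannot exclude a pairing of these arrays that acts on part of the probe sets. With a replicate block 66 were higher and 261 lower, 327 in all, of which 230 were among the 293. Of 884 list medians recomputed, 72 moved by more than the spread between replicates. The table has no signal over background, and 2 arrays a group limit what can be called.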
